A study of Caenorhabditis elegans with 2 samples.

Results

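The genes rpr-1, mrpr-1 and srpr-2.2 of Caenorhabditis elegans, named for the RNAs of RNase P, RNase MRP and the signal recognition particle (SRP), are described here as sites of chromatin immunoprecipitation. They were chosen by name, with the peaks of this experiment already known, and are 3 of the 46926 genes in the Ensembl annotation of build WBcel235 (ce11). Of the 5 genes in that annotation whose names begin with srpr, srpr-2.2 is the member and the other 4 serve for comparison.

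The experiment is a single group of 2 biological replicates of whole young adult hermaphrodites, collected 64 h after starved L1 larvae were synchronized by bleaching. Both replicates are of strain OP478, which carries unc-119(tm4063) III and the transgene wgIs478. The transgene gives stable expression of the T07F8.4 protein with GFP and FLAG at its C-terminal end, and chromatin was precipitated with an antibody against GFP. RefSeq names the product of T07F8.4 an ELM2 domain-containing protein, and this domain is known from subunits of chromatin corepressor complexes. Nothing in the labels says which promoter drives the transgene or whether the chromosomal T07F8.4 gene is intact. Whole animals were used, so the cell types behind a region cannot be told apart. The labels point to a control experiment, which was not analysed here. Whether the authors' signal values already take the control into account is not stated. The values are used here only to rank places within each list, and they do not show that a place depends on the tagged protein.

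RNase P is an RNA enzyme that removes the leader at the 5′ end of precursor tRNAs. RNase MRP is its relative, known in yeast and human cells for cutting precursor ribosomal RNA, and there it shares most of its proteins with RNase P. The SRP binds the signal sequence of a nascent protein and takes the ribosome to the endoplasmic reticulum, and its RNA is the scaffold of the particle. In human cells all of these RNAs are made by RNA polymerase III. The human RNase P and RNase MRP RNA genes use a promoter upstream of the gene that includes a TATA box, whereas tRNA genes use the A and B boxes inside the gene.

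All 3 genes had a reproducible peak, a peak that the authors kept by the irreproducible discovery rate, with its summit inside the gene. Among all annotated genes, 3.48% had a reproducible summit within 1000 bp of the gene body (1635 of 46926), and among genes of biotype ncRNA, the biotype of all 3 members, 4.82% had one (374 of 7764). The members were picked with their peaks known, so nothing is read from their count. Of the 600 nuclear reproducible summits, 147 lay inside a gene of biotype ncRNA. The peak at rpr-1 had the highest signal value of these 147, while mrpr-1 held place 21 and srpr-2.2 place 50. Many of these summits were close to tRNA genes. Among the 38 that were more than 1000 bp from any tRNA gene, rpr-1 held place 1, mrpr-1 place 14 and srpr-2.2 place 19, and the median signal value was 106.2. The nearest tRNA gene was 132.8 kb from the rpr-1 summit, 197.0 kb from the mrpr-1 summit and 263.4 kb from the srpr-2.2 summit.

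The sequence of mrpr-1 is shown because both replicate summits fell towards its 3′ end and because its upstream DNA holds a TATA-like word. The first line gives the 60 bases before the gene on ce11 (chrII:7200173-7200232, plus strand), with TATAA in capitals. The second gives the gene itself (chrII:7200233-7200418, plus strand), with the bases between the lowest and the highest of the replicate and pooled summits in capitals. Both come from the RefSeq genome of this build.

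mrpr-1 upstream: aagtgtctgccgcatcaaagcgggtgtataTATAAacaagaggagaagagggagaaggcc

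mrpr-1 gene: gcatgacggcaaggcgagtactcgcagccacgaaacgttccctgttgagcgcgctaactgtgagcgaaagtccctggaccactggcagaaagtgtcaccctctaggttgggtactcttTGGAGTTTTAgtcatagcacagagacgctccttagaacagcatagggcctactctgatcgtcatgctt

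For srpr-2.2 the same 2 stretches are given on the minus strand (chrIII:5031709-5031768 upstream and chrIII:5031410-5031708 for the gene), with the bases between the replicate summits in capitals. They show how far apart the replicate summits lay in this gene: the capitals run over 110 bases, against 10 in mrpr-1.

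srpr-2.2 upstream: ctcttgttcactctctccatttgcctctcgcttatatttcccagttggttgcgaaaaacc

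srpr-2.2 gene: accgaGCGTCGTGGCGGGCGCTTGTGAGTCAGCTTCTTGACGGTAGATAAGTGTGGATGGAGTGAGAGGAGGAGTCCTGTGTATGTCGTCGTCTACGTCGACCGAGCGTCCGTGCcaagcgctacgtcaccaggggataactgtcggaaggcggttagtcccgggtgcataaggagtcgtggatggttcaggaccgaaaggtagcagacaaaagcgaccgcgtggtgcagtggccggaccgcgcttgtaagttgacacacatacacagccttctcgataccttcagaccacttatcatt

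The RNase P RNA gene, rpr-1 (WBGene00045238, 253 bp, plus strand of chromosome I from 13463955 to 13464207), had the highest value of the 3. Its region in the authors' signal column stood at 245.2 in the pooled list, 133.8 in the list of replicate 1 and 111.6 in that of replicate 2. A signal value is the peak caller's own figure for a region, on a scale that the labels do not state, and the lists were called separately, so each value is read against its own list. Against the nuclear regions alone, rpr-1 ranked 6 of 16935 in the pooled list, 6 of 19491 in replicate 1 and 9 of 17474 in replicate 2. The pooled value was 10.7 times the median of that list, and the replicate values were 10.3 and 8.25 times the medians of theirs.

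The rpr-1 summits fell just inside the 5′ end of the gene, 23 bp downstream of the transcript start in the pooled list, 27 bp in replicate 1 and 38 bp in replicate 2, where the first transcribed base counts as 0. The pooled summit is at position 13463978 in a region that runs from 13463816 to 13464128. This region was 313 bp wide, and the replicate regions were 226 and 256 bp wide. Most regions share one width, 436 bp in 16845 of the 16958 pooled regions, and rpr-1 is one of the 113 with another width. Of the 621 reproducible peaks, 109 have another width, so such widths are more common among peaks like that of rpr-1. A second, much lower pooled region had its summit 223 bp into the gene, with a signal value of 26.9 and rank 5617 among nuclear regions. Its counterpart in replicate 1 had 15.7 (rank 5940), and replicate 2 had none within 1000 bp. All of the rpr-1 gene lies in an intron of 2023 bp of ints-8, a gene named for subunit 8 of the Integrator complex, which is transcribed from the opposite strand. No other annotated gene was within 1000 bp, and the pooled summit was 6393 bp from the ints-8 start.

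The RNase MRP RNA gene, mrpr-1 (WBGene00045095, 186 bp, plus strand of chromosome II), had signal values of 131.1 in the pooled list, 83.2 in replicate 1 and 50.4 in replicate 2. It ranked 99 of 16935 nuclear regions in the pooled list, 56 of 19491 in replicate 1 and 229 of 17474 in replicate 2. Its rank was thus high in every list but less even than that of rpr-1. The values were 5.70, 6.41 and 3.73 times the medians of the pooled, replicate 1 and replicate 2 lists.

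The mrpr-1 summits lay in the last part of the gene, 127 bp from the transcript start in the pooled list, 118 bp in replicate 1 and 127 bp in replicate 2. These are the bases in capitals in the gene sequence above, and the pooled summit, at 7200360, was 58 bp short of the 3′ end. The pooled region, from 7200142 to 7200577, covered the whole gene and the first bases of the next one. That gene is pcrg-1, named for the parkin co-regulated gene, on the same strand and 130 bp beyond the end of mrpr-1. The summit was 189 bp upstream of the pcrg-1 start, so a region at mrpr-1 and a region at the pcrg-1 promoter cannot be told apart by position. On the other side E04F6.6 begins 795 bp from the summit and runs the opposite way, which makes the stretch upstream of mrpr-1 the space between divergent genes. No second region was within 1000 bp in any list.

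The SRP RNA gene srpr-2.2 (WBGene00195017, 299 bp, minus strand of chromosome III) had signal values of 112.5 in the pooled list, 58.3 in replicate 1 and 57.3 in replicate 2. Its ranks among nuclear regions were 167 of 16935, 185 of 19491 and 153 of 17474 in the same order of lists. The values were 4.89, 4.49 and 4.23 times the list medians, and of the 3 genes this one stood at the most even height in the lists.

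Its summit was the least steady in position. It lay 105 bp from the transcript start in the pooled list and 114 bp in replicate 1, but 5 bp in replicate 2. The replicate summits were 109 bp apart, against 11 bp at rpr-1 and 9 bp at mrpr-1. Of the 600 nuclear reproducible peaks, 571 had a summit in both replicate lists within 100 bp, and among these the median gap between the replicate summits was 27 bp (quartiles 11 and 48 bp). A gap smaller than that of srpr-2.2 was found in 97.9% of them, against 24.5% for rpr-1 and 20.8% for mrpr-1. Peaks with a summit farther off in either replicate list are left out of these shares. The replicate 2 summit of srpr-2.2 was 100 bp from the pooled one, at that limit. A second pooled region had its summit 98 bp upstream of the gene, with a signal value of 42.4 and rank 1741 among nuclear regions. In replicate 1 it was 90 bp upstream, with 17.0 (rank 4749), and replicate 2 had a single region, whose summit fell between the places of the other list's summits.

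The srpr-2.2 gene lies in an intron of 665 bp of klp-6, a kinesin-like motor protein gene known for its role in ciliated neurons, on the opposite strand. The pooled summit was 674 bp downstream of the klp-6 start. The srpr-2.2 gene also overlaps R144.16, a 148 bp gene of biotype ncRNA on the same strand, by 39 bp at its 5′ end. The replicate 2 summit, at position 5031703, was in this overlap, and the second region of the pooled list had its summit inside R144.16. The lincRNA gene R144.19 was 955 bp away. Regions carry no strand, so srpr-2.2, R144.16 and the klp-6 intron cannot be told apart as the source.

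**Figure D1:**
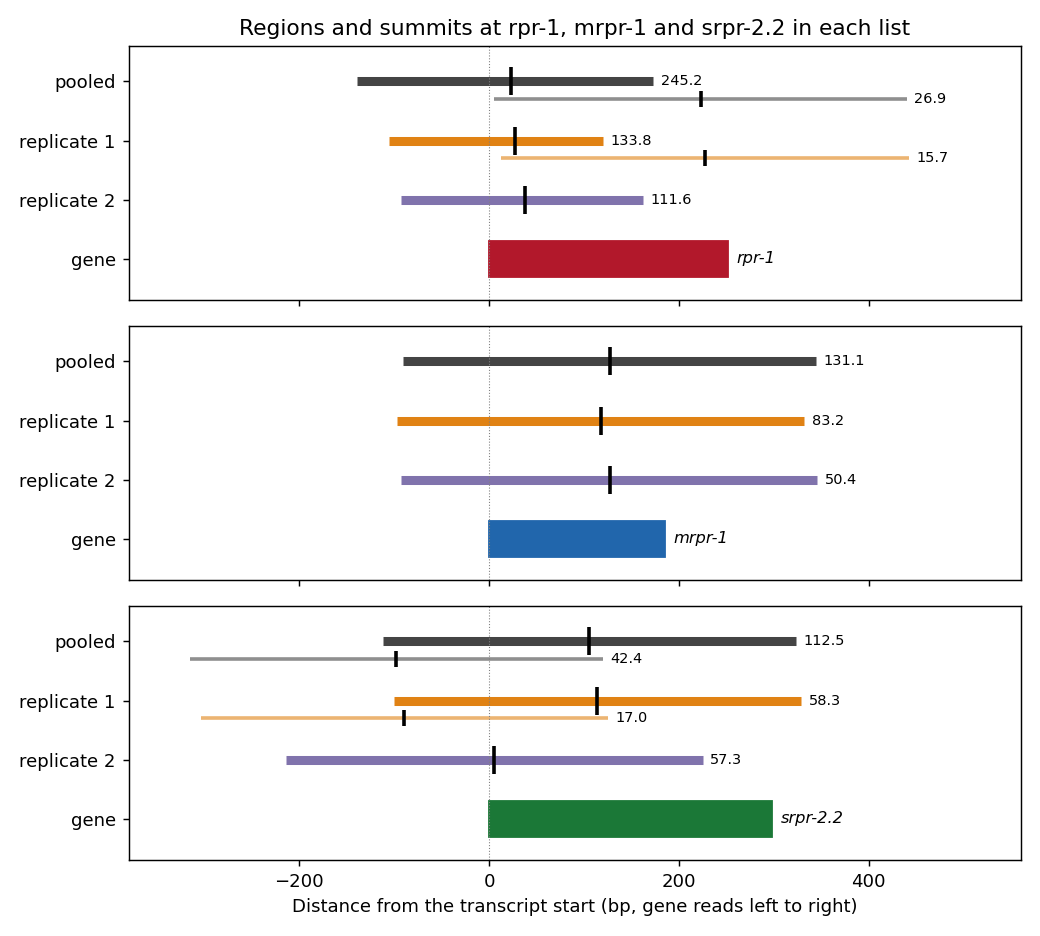
Regions within 1000 bp of each gene, drawn against distance from the transcript start in bp. Thick bars are the highest region in each list and thin bars any second one, black ticks are summits, numbers are signal values, and the coloured block is the gene; the rpr-1 summits sit at 23 to 38 bp, the mrpr-1 summits at 118 to 127 bp, and the srpr-2.2 summits at 105, 114 and 5 bp.

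The order of the 3 genes held partly. Within each list rpr-1 was the highest: its signal value was 1.87 times that of mrpr-1 in the pooled list, 1.61 times in replicate 1 and 2.21 times in replicate 2. Against srpr-2.2 it was 2.18, 2.30 and 1.95 times as high in those lists. The next pair changed places. The value of mrpr-1 was 1.17 times that of srpr-2.2 in the pooled list and 1.43 times in replicate 1, but 0.88 times in replicate 2. With 2 replicates and no read counts no test of this order was made, and mrpr-1 and srpr-2.2 did not differ in one direction.

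**Figure D2:**
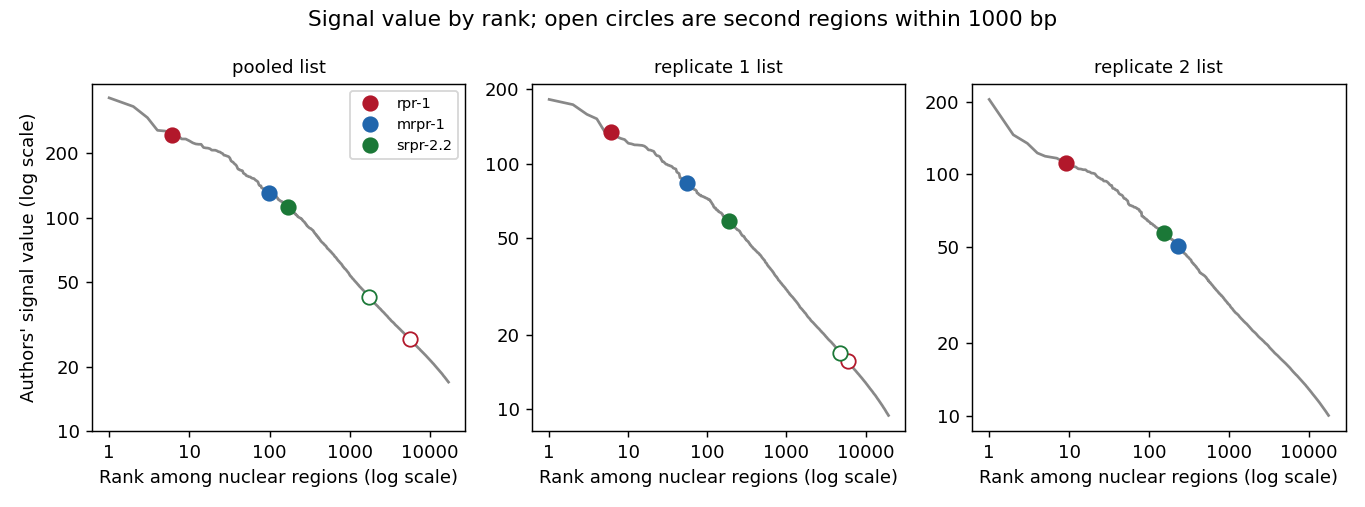
Signal value against rank for the nuclear regions of the pooled, replicate 1 and replicate 2 lists, both axes on a log scale. Filled circles are the highest region of each gene and open circles a second region; rpr-1 stands at rank 6, 6 and 9, mrpr-1 at 99, 56 and 229, and srpr-2.2 at 167, 185 and 153.

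The peaks closest in signal value were near genes of several kinds or had no transcript start within 1000 bp. Among nuclear reproducible peaks, the one next above rpr-1 was at the snoRNA gene T03F7.8 (signal value 254.6) and the one next below was on chromosome X with no transcript start within 1000 bp (244.7). Next above mrpr-1 was another X chromosome peak without a transcript start that close (131.09). Next below was a peak 249 bp from the start of dpm-3 (130.98), a protein-coding gene. For srpr-2.2 these were a peak 274 bp from the start of the protein-coding gene ubc-6 (112.58) and a chromosome II peak with no transcript start within 1000 bp (112.36). Likeness here is the difference in signal value in a single pooled list, and it was at most 9.38 for these 6 peaks.

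Other pooled regions around the genes are set against the median signal value of the whole pooled list, 23.0. Within 20 kb of the rpr-1 summit there were 4, with a median of 28.5 and a highest signal value of 40.04. The next reproducible summit on chromosome I was 132.8 kb away. Within 20 kb of mrpr-1 there were 6, with a median of 23.9 and a highest value of 151.4, which was at the reproducible peak near C27H5.9, 16.2 kb off. Within 20 kb of srpr-2.2 there were 12, with a median of 26.3 and a highest value of 156.3, and the nearest reproducible summit, 6.32 kb off, was near pcf-11 with 69.9. The highest values near mrpr-1 and srpr-2.2 were above those of the members themselves, 131.1 and 112.5. The tagged gene itself, T07F8.4, is on the same chromosome as mrpr-1, and 68.2 kb separate them. Neither the pooled nor a replicate list had a region within 1000 bp of T07F8.4.

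The SRP RNA has several gene copies, and 2 of the other 4 had a reproducible peak within 1000 bp. At srpr-2.1 there were 2, with summits 53 and 254 bp from the transcript start, signal values of 84.8 and 76.4, and ranks 384 and 476 in the reproducible list of 621. Replicate 1 had 2 regions there, with summits at 14 and 259 bp, but replicate 2 had only 1, at 244 bp. At srpr-1.1 the summit was outside the gene, 96 bp past its 3′ end, with 69.1 and rank 605, close to the lowest value in that list (68.2). At srpr-3 the highest pooled region had 51.1 and was not in the reproducible list. At srpr-1.2 the pooled list and replicate 2 had no region within 1000 bp, while replicate 1 had 2, with values of 38.7 and 23.3. In replicate 1 the highest values of the others were 34.2 at srpr-2.1, 36.9 at srpr-1.1 and 28.3 at srpr-3. In replicate 2 they were 49.0, 35.0 and 22.1 at the same 3 genes. The srpr-2.1 values are from different places, with the summit at 14 bp in replicate 1 and 244 bp in replicate 2. The srpr-2.2 value was the highest of the 5 copies in each list. Since srpr-2.2 was picked as the member with the peaks known, nothing is read from this order.

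**Figure D3:**
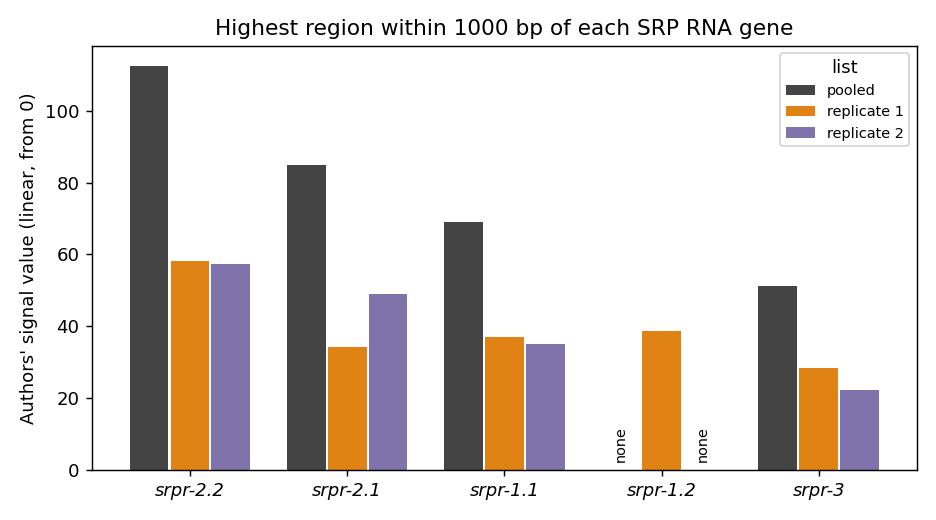
Signal value of the highest region within 1000 bp of each of the 5 SRP RNA genes, on a linear axis from 0, in the pooled, replicate 1 and replicate 2 lists. Bars of one gene can come from different places: at srpr-2.1 the summit is 14 bp from the start in replicate 1 and 244 bp in replicate 2. The word none marks a list with no such region; srpr-2.2 stands at 112.5, 58.3 and 57.3, and srpr-1.2 has a region in replicate 1 only.

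The copies are so alike that short reads could align to more than one. The gene srpr-2.1 matches srpr-2.2 at 296 of 299 aligned positions (99.0%), and the 3 differences are C90T, A249G and A265G, with the srpr-2.2 base first and positions counted from 1 at its 5′ end. Identity to srpr-2.2 is 94.0% for srpr-1.1, 94.0% for srpr-1.2 and 81.7% for srpr-3. The 81 bases centred on the pooled summit of srpr-2.2 (chrIII:5031563-5031643, minus strand) are set beside the matching stretches of the other copies, which lie at chrIII:5211285-5211365 (plus) for srpr-2.1, chrIII:4379061-4379141 (minus) for srpr-1.1, chrIII:4369533-4369613 (plus) for srpr-1.2 and chrV:9293487-9293567 (minus) for srpr-3. Capitals mark bases that differ from srpr-2.2.

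srpr-2.2: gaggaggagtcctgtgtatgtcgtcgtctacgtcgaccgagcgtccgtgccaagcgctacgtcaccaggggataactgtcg

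srpr-2.1: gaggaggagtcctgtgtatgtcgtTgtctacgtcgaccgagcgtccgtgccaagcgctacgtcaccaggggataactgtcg

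srpr-1.1: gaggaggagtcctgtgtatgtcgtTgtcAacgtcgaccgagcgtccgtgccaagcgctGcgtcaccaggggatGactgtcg

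srpr-1.2: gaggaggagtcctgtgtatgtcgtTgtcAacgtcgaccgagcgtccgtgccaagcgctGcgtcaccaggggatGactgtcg

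srpr-3: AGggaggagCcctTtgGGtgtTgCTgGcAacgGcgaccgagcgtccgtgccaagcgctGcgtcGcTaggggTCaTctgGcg

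The stretch at the srpr-2.2 summit has 1 differing base in srpr-2.1, the same 4 in srpr-1.1 and srpr-1.2, and 19 in srpr-3. Of the 264 windows of 36 bases in the srpr-2.2 gene, 87 occur once in the genome (33.0%). The shares are 31.4% for srpr-2.1, 28.8% for srpr-1.2 and 14.8% for srpr-1.1. In srpr-3, rpr-1 and mrpr-1 every such window is unique, and so is every window in the 200 bp on each side of the 3 members. Neither the read length nor what was done with multiply aligned reads is stated in the labels, and their part in the values and summit places of the SRP copies was not tested.

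Sequence words of RNA polymerase III genes were looked up at the 3 members, as a description only. The word GTTCGANNC, the core of the B box of tRNA genes, occurs on either strand within 100 bp of the summit at none of the 3, at 33.3% of the 621 reproducible summits and at 4.13% of the 16958 pooled ones. TATAA occurs in that window at rpr-1, at 27.9% of the reproducible summits and at 36.1% of the pooled ones. TTTTT, a run of the kind at which RNA polymerase III stops, occurs in it at none of the 3, although 75.04% of reproducible and 78.5% of pooled summits have it. The window does not reach the 3′ ends of rpr-1 and srpr-2.2, which lie 229 and 193 bp from the pooled summits. Nor does it reach the DNA upstream of mrpr-1 and srpr-2.2, whose pooled summits are 127 and 105 bp into the gene.

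Just upstream of the transcript start the genes differed. On the gene's own strand TATAA begins 28 bases before the start of rpr-1 and 30 bases before that of mrpr-1, where it is in capitals in the upstream sequence above. In the 40 bases before the start, TATAA on the gene's strand is found at 10.1% of all 46890 nuclear genes, at 15.5% of snRNA genes (20 of 129) and at 4.74% of genes of biotype ncRNA. It is not in that window on the gene's strand at srpr-2.2 or at any of the other 4 copies. On the other strand the windows of srpr-2.2, srpr-1.1 and srpr-1.2 have it, those of srpr-2.1 and srpr-3 do not, and 14.7% of all nuclear genes have it on either strand. The 40-base window was chosen after the data were seen. The run of T that touches or spans the annotated 3′ end, counted on into the bases beyond the gene, is 5 bases long at rpr-1, 4 at mrpr-1 and 5 at srpr-2.2. A run of 4 or more counted in this way is found at 12.4% of all nuclear genes and at 8.23% of genes of biotype ncRNA. The share is 24.9% for snoRNA, 18.6% for snRNA, 16.3% for protein-coding and 1.31% for tRNA genes. The other SRP RNA genes have it too, with 5 bases at srpr-1.1, srpr-1.2 and srpr-2.1 and 4 at srpr-3. The GC content of the genes is 51.0% at rpr-1, 53.2% at mrpr-1 and 56.5% at srpr-2.2.

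The genes listed by name for the protein partners, not all of which need be subunits, gave no reproducible peak within 1000 bp. This holds for all 7 genes that RefSeq or the symbol popl names as RNase P or RNase MRP proteins and all 9 whose RefSeq product names the signal recognition particle, where 3.6% of protein-coding genes had one (719 of 19985). Lists this short against that background do not set the protein genes apart, and nothing is read from the counts. Any pooled region was present near 6 of the 7 and 7 of the 9, and near 37.4% of all annotated genes. That share covers genes of every biotype, and no share for protein-coding genes alone was computed for pooled regions. Overlapping or neighbouring genes in the lists can also share a region, which is then counted for each. An excess over the background was therefore not tested, and nothing is read from these counts either. Genes differ in length, and longer ones have more room for a region.

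Among the RNase P and RNase MRP protein genes the highest pooled signal values were 37.4 at popl-1, 31.0 at a region shared by the overlapping genes popl-7 and Y62E10A.24, 23.3 at H35B03.2, 22.3 at popl-4 and 19.8 at Y37E11AM.4, and popl-5 had none. The region of H35B03.2, an RNase P subunit by its RefSeq product, had its summit 38 bp upstream of the start. Its value was close to the pooled list's median of 23.0, and replicate 2 had no region there. The summits of popl-1 and Y37E11AM.4 were 955 and 600 bp upstream, and that of popl-4 was 710 bp past the 3′ end. The shared summit was 327 bp past the end of popl-7 and inside Y62E10A.24. RefSeq gives popl-7 another product name, Protein kish, and the RNase P subunit to Y62E10A.24. Among the SRP genes the values included 53.4 at F37F2.2, 30.7 at F21D5.7, 29.4 at ZK512.4, 21.5 at srpa-72, 20.8 at F25G6.8 and 20.7 at F25G6.9. Genes that neighbour each other, such as F25G6.8 and F25G6.9, had a region in common in the pooled list and in replicate 1. The F37F2.2 summit was 324 bp upstream of its start, and those of ZK512.4 and F25G6.8 were 841 and 421 bp past the 3′ end. The summits of F21D5.7, srpa-72 and F25G6.9 were inside the gene. No pooled region was near Y37F4.4, which RefSeq names a signal recognition particle-docking protein, or near mig-2. The gene mig-2 is in the list through a single RefSeq product name beside that of a Rac protein. All these values were below the lowest signal value in the reproducible list, 68.2. This follows from the absence of a reproducible peak, since every pooled region outside that list had a lower value than any in it. The 3 RNA genes, picked with their peaks known, stood at 245.2, 131.1 and 112.5.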

How the data were processed

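The deposited data used were 4 peak lists on ce11, for replicate 1 (19514 regions), replicate 2 (17499), the pooled replicates (16958) and the reproducible peaks (621). Per the deposited file descriptions, each replicate or pooled list was made by the authors from the replicate alignments and 1 further file, and the reproducible list came from the other 3 lists by the irreproducible discovery rate. The labels name no aligner, peak caller or threshold (not given in the sources used here). The signal value of each region and its q-value as −log10 are the authors' own, and the q-value was at its highest for 421 of 621 reproducible peaks, so regions were ranked by signal. The lists hold no read counts, so depth is unknown and no test was made. Lists on ce10 were not used.

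Summits were made 1-based and placed on Ensembl release 115 genes. Names of proteins and sequences came from RefSeq (WBcel235). A gene had a region when a summit lay within 1000 bp of its body. Copies were aligned globally with Biopython 1.88. Python 3.11.15 and pandas 2.3.3 were used, and the functions were tested on planted summits and motifs. The members and lists were chosen with earlier results of these data known. Named genes were the members, their neighbours within 1000 bp, list members with a pooled region (1 item is not reported here), the peaks next in signal, and T07F8.4. Other genes, such as C27H5.9, pcf-11 and those without a region, were named after their values were seen. Alternatives were other windows, a stricter list, single replicates, nuclear ranks, q-value ranks and interval midpoints.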

Additional observations from a re-analysis of the deposited data

How the results depend on the processing

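The reproducible summits of all 3 genes lie inside the gene and rank 25, 119 and 188 of 621. Windows of 500 and 100 bp and a cut at the 310 highest reproducible peaks therefore could not drop them. All 3 genes also had a summit in both replicate lists within 100 bp of the reproducible one. Within 50 bp, 2 of 3 had this, without srpr-2.2. The share of pooled regions with a higher signal value was 0.142% at rpr-1, 0.696% at mrpr-1 and 1.103% at srpr-2.2. Among nuclear regions it was 0.0295%, 0.579% and 0.980%, and ranked by q-value it was 0 for each, since the value is tied at its highest. With 1 replicate left out it ran from 0.123% to 0.177% at rpr-1, 0.384% to 1.45% at mrpr-1 and 1.01% to 1.05% at srpr-2.2. Summits then lay 27 to 38 bp from the start at rpr-1, 118 to 127 bp at mrpr-1 and 5 to 114 bp at srpr-2.2, and regions within 1000 bp numbered 1 to 2 at rpr-1 and at srpr-2.2. Interval midpoints lay 17 bp from the start at rpr-1, 126 bp at mrpr-1 and 106 bp at srpr-2.2, against summits at 23, 127 and 105 bp.

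All annotated genes with a reproducible summit made up 3.48% at 1000 bp, 1.90% at 100 bp and 1.90% among the 310 highest peaks, where the other SRP RNA genes had 0. Within 50 bp of the summit, shares with GTTCGANNC were 16.4% of reproducible and 2.16% of pooled summits, with TATAA 12.9% and 20.2%, and with TTTTT 39.9% and 57.0%. With 60 bases upstream, added after the data were seen, 13.8% of genes had TATAA. No paired analysis was possible because the samples form a single group. Depth is unknown, so how finely signal values can be told apart was not tested.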
